A study of Mus musculus with 4 samples.

Results

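The genes described here encode 9 histone deacetylases of mouse, the enzymes that take acetyl groups off lysines of histones and of other proteins: Hdac1, Hdac2, Hdac3 and Hdac8 of class I, Hdac4, Hdac5, Hdac7 and Hdac9 of class IIa, and Hdac11, which alone makes up class IV. They were taken by symbol from a deposited table of read counts, and all 9 were among its 20837 genes and passed the filter on low counts, which kept 13861. The libraries hold RNA of regulatory T cells (Treg cells, a CD4 lineage defined by the transcription factor Foxp3 that holds immune responses in check) from the spleen. The 2 libraries labelled WT came from mice of genotype Foxp3YFP-Cre Kmt2d+/+, and the 2 labelled cKO from Foxp3YFP-Cre Kmt2dfl/fl mice, in which Cre made under Foxp3 control is meant to cut floxed Kmt2d, a histone methyltransferase gene of enhancers, in Foxp3-expressing cells. Both groups therefore carry the Foxp3YFP-Cre allele. Values are given for WT 1, WT 2, cKO 1 and cKO 2 in that order. The labels do not say how old the mice were or whether different mice gave a group's libraries. The p-values therefore measure only the spread between the 4 libraries, and that spread may be technical. The extraction field describes cultured marrow macrophages of a different knockout, against the tissue, cell type and genotype fields that the groups follow.

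Class I enzymes sit in the nucleus and work inside corepressor complexes: Hdac1 and Hdac2 in the Sin3, NuRD and CoREST complexes, and Hdac3 in the NCoR corepressor complex. Class IIa enzymes have weak activity of their own, bind MEF2 transcription factors and silence MEF2 targets, and are sent out of the nucleus when kinases such as the protein kinase D, CaMK and SIK families phosphorylate them and 14-3-3 proteins bind. Hdac7 is the class IIa enzyme best known from thymocytes and T cells, class IIa enzymes can bind Foxp3, and loss or inhibition of Hdac9 is known to raise Treg cell function in mice.

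Of the 4 class IIa genes, 3 were lower in the libraries labelled cKO: Hdac7 fell by 32.4%, Hdac4 fell by 33.6% and Hdac5 fell by 11.4%. Hdac9 did not pass, nor did any class I gene or Hdac11, and 0 members were called higher. That is 3 of 9 members called, or 33.3%, beside 31.6% of all genes tested (edgeR quasi-likelihood test, adjusted p under 0.05), so the share of called members is near the share of all genes. By direction, 15.1% of all genes tested were called lower and 16.5% higher. Upper-quartile scaling also gave 3 called members, but 2 lower and 1 higher (Hdac3 in place of Hdac5). At an unadjusted p under 0.05, 2 members (Hdac2 and Hdac3) were higher in edgeR, and DESeq2 called 0 members higher, adjusted or not. The median log2 fold change was 5.6e-05 over the members and 3.05e-04 over all genes tested.

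Total counts per library ran from 28442416 to 35560491, and 1 count was worth 0.0288 to 0.0344 CPM (the usual depth-scaled count unit, here with TMM-scaled library sizes). Kmt2d, the targeted gene, measured 721 and 704 CPM in the libraries labelled WT and 836 and 793 CPM in those labelled cKO, where it was called higher (log2 fold change 0.19, edgeR adjusted p = 0.0375). A count over the whole gene takes in exons outside the floxed part, so this checks nothing about the deletion, and directions below are between libraries as labelled. Foxp3 measured 278 and 250 CPM against 170 and 180 CPM (log2 fold change -0.59, edgeR adjusted p = 0.00493). The 10 pan T cell markers summed to 5045 and 5014 CPM in WT and 4054 and 4293 CPM in cKO, 8 of them called lower and 2 not (median log2 fold change -0.32). The 10 macrophage markers summed to 294 to 573 CPM over the 4 libraries, with 0 called (edgeR; 2 at an unadjusted p under 0.05, and 3 in DESeq2). In bulk samples, fewer cells of a type and less RNA per cell cannot be told apart.

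Proliferation genes and markers of other blood cells moved with the groups in these libraries. The 12 proliferation genes, all called higher, summed to 501 and 611 CPM in WT and 1137 and 1026 CPM in cKO. The 10 neutrophil markers, all called higher, summed to 61.5 and 175 CPM against 557 and 1249 CPM, and 8 of 10 basophil and mast cell markers were higher (17.2 and 21.9 against 51.8 and 69.8 CPM). Of 10 CD8 T and NK cell markers 9 were higher (176 and 209 against 302 and 316 CPM), of 9 B cell markers 2 (118 and 144 against 157 and 277 CPM), and of 10 plasmacytoid dendritic cell markers 4, with 1 lower (220 and 218 against 215 and 245 CPM). Of 10 Treg cell markers, 4 were lower and 1 higher (3660 and 2855 against 2512 and 3110 CPM). The erythroid and platelet sums overlapped between groups (672 and 242 against 185 and 522 CPM), with 1 of 8 tested markers called higher. The defining markers Klf1 and Pf4 were at 0 in some libraries. The part of any of these in the values of the deacetylase genes or their partners was not tested.

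**Figure D1:**
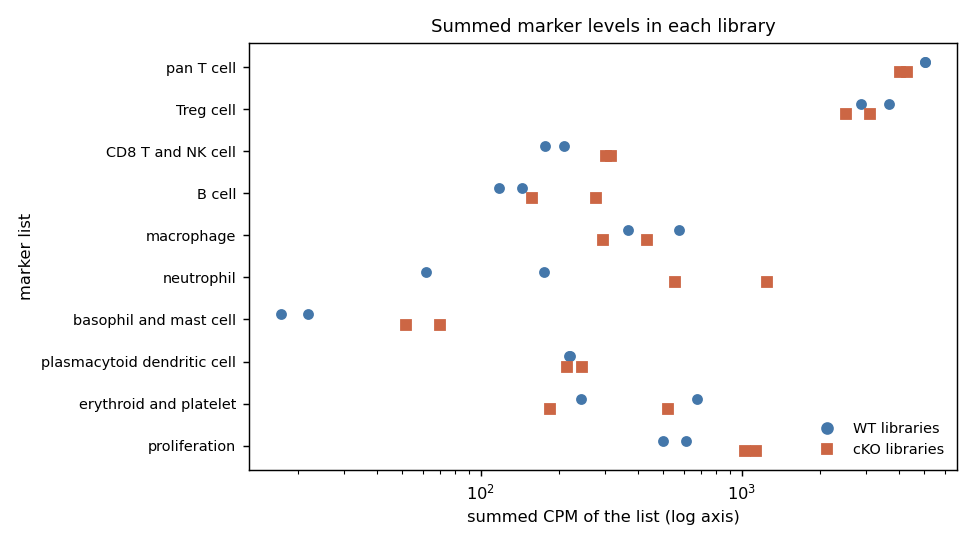
Summed CPM (log axis) of each marker list in the 4 libraries, circles for WT and squares for cKO. Neutrophil, basophil and mast cell, CD8 T and NK cell and proliferation lists are higher in both cKO libraries, and the pan T cell list is lower, at 4054 and 4293 CPM against 5045 and 5014.

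**Figure D2:**
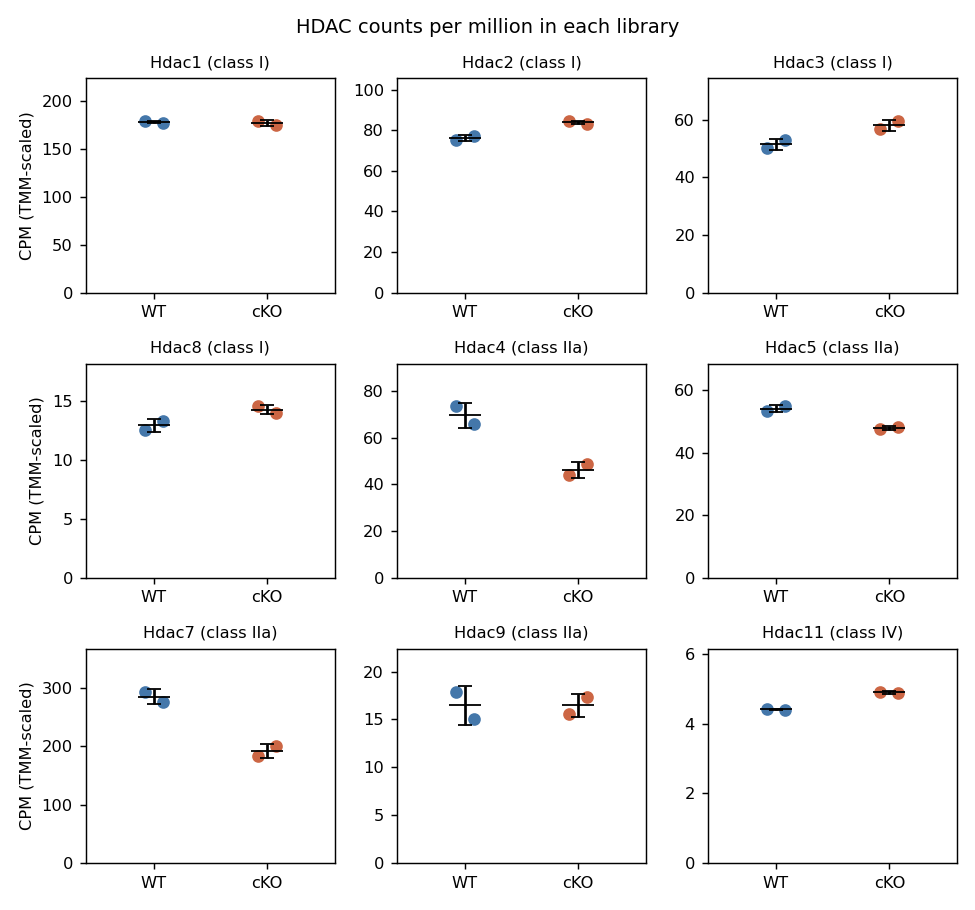
CPM (vertical axes, from 0, each gene with its own scale) of the 9 genes in the WT and cKO libraries. Points are libraries and bars show mean and SD over 2 libraries; Hdac4, Hdac5 and Hdac7 are lower in both cKO libraries than in both WT libraries, while the Hdac1 and Hdac9 points overlap.

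Hdac7 (gene number 56233, GRCm38 chromosome 15, 97792664 to 97844502, minus strand) measured 294 and 276 CPM in WT and 184 and 201 CPM in cKO, from 10209, 8418, 5354 and 6947 counts. The groups were apart, with a gap of several times the spread within a group. The means were 285 ± 12.7 and 193 ± 12.1 CPM (SD, n = 2), a log2 fold change of -0.57 (SE 0.06, 95% interval -0.73 to -0.41, edgeR quasi-likelihood adjusted p = 0.00489). The call held in all 11 alternatives run, with log2 fold changes from -0.63 to -0.51. Among all genes tested, 79.3% had a smaller absolute change. On the opposite strand Hdac7 overlaps Slc48a1, a haem transporter gene, which had a log2 fold change of -0.05. No label or header says whether counting used strand, so reads from exons where the 2 genes overlap cannot be told apart.

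Hdac4 (gene number 208727, chromosome 1, 91928779 to 92195699, minus strand), a class IIa enzyme best known from muscle, bone and brain, measured 73.4 and 65.8 CPM in WT and 43.8 and 48.7 CPM in cKO. The groups did not overlap. The means were 69.6 ± 5.36 and 46.2 ± 3.41 CPM (SD, n = 2), a log2 fold change of -0.59 (SE 0.08, 95% interval -0.79 to -0.39, edgeR adjusted p = 0.00595). This call, too, held in all 11 alternatives, from -0.67 to -0.51 on the log2 scale. Of the 50-base words in annotated Hdac4 transcripts, 21.6% also occur in Gm26720, an unnamed gene on the opposite strand that has no row in the table, so part of the Hdac4 count may depend on how such reads were assigned.

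Hdac5 (gene number 15184, chromosome 11, 102194432 to 102230166, minus strand), a class IIa relative of Hdac4 that shuttles in the same way, fell by far less. It measured 53.3 and 54.9 CPM in WT and 47.5 and 48.3 CPM in cKO, again without overlap. The log2 fold change was -0.17 (SE 0.05, 95% interval -0.30 to -0.05, edgeR adjusted p = 0.046). The call was lost in 8 of 11 alternatives, among them each of the 4 with a library left out (edgeR adjusted p of 0.122 to 0.207), DESeq2 (0.208) and upper-quartile scaling (0.0887), while the sign stayed negative in each.

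Hdac9 (gene number 79221, chromosome 12, 34047580 to 34917095, minus strand) measured 17.9 and 15.03 CPM in WT and 15.6 and 17.3 CPM in cKO. Each group holds a library near the top and a library near the bottom of the range. The log2 fold change was 5.6e-05 (SE 0.11, 95% interval -0.28 to 0.28, edgeR adjusted p = 1.00), so falls as large as that of Hdac7 lie outside this interval and small changes in either direction lie inside it. Under the alternatives it ran from -0.12 to 0.13, with 0 of 11 called.

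**Figure D3:**
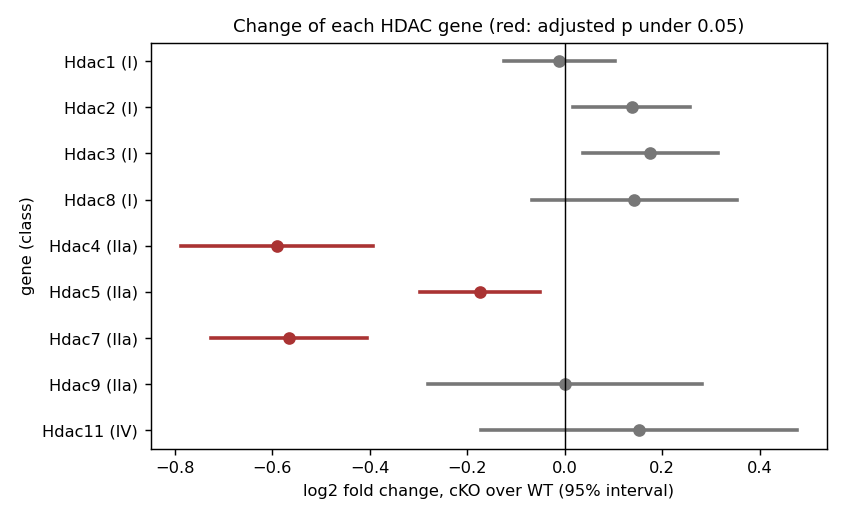
Log2 fold change of cKO over WT (horizontal axis) for each gene, with its 95% interval from the edgeR fit. Red marks adjusted p under 0.05; the intervals of Hdac4 and Hdac7 lie wholly below -0.39, and those of Hdac1, Hdac8, Hdac9 and Hdac11 span 0.

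The start regions of the 3 genes that fell are shown because these members moved in the same direction, and that of Hdac9 because it is the class IIa gene that did not pass. RefSeq (GRCm38.p6) gave windows of 300 bases, 250 before and 50 after a start site, for 7 of the 9 members. Hdac7 has 4 such windows and the one shown is the only one with a match to a searched motif, and Hdac9 has 2. The windows shown for Hdac4, Hdac7 and Hdac9 lie at starts inside the span that GENCODE gives the gene, and counts per gene do not tell which start was used. All 4 are on the minus strand: Hdac4 at chr1:92180292-92180591, Hdac5 at chr11:102230123-102230422, Hdac7 at chr15:97831446-97831745 and Hdac9 at chr12:34528840-34529139. Capitals mark every match, on either strand, to the MEF2 core (CTA and TAG around any 4 bases), the GC box GGGCGG, the CCAAT box CCAAT, the E-box CACGTG or the cyclic AMP response element TGACGTCA. The motifs were picked after these windows had been seen, and matches of different motifs do not overlap in them.
Hdac4: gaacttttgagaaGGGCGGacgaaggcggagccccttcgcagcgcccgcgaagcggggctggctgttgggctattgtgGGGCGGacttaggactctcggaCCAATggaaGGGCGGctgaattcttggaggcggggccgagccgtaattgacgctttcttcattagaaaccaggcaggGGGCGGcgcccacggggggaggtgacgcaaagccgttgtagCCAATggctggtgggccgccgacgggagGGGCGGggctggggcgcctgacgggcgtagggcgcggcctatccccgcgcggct
Hdac5: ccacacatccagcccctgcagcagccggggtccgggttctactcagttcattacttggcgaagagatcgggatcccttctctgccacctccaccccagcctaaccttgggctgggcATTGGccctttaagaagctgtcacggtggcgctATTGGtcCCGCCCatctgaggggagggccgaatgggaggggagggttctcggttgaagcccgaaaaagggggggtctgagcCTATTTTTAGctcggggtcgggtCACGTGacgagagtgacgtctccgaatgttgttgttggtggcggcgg
Hdac7: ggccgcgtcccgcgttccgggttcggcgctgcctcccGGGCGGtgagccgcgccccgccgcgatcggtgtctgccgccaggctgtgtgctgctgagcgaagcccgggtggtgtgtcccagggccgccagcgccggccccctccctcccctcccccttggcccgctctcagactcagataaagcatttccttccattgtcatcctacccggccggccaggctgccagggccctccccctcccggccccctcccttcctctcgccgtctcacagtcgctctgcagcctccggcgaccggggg
Hdac9: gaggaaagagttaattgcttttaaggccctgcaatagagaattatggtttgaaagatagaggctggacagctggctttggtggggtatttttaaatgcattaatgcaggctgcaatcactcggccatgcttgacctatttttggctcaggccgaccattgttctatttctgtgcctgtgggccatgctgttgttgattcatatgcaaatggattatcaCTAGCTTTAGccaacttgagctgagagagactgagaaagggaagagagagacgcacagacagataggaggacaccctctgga

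The windows differ in make-up. That of Hdac4 holds 5 GC boxes, the element read by SP and KLF factors, and 2 CCAAT boxes, with 32 CpG pairs. The Hdac7 window shown holds 1 GC box and 31 CpG pairs, and the other 3 Hdac7 windows hold 6, 35 and 5 CpG pairs. That of Hdac5 holds 1 GC box, 2 CCAAT boxes, 1 E-box and 18 CpG pairs. The Hdac9 window shown has 3 CpG pairs, and the other Hdac9 window, at the far upstream start, has 0. Over 32851 windows of this length the median was 7 CpG pairs. The MEF2 core occurs in the Hdac5 window (ctatttttag, 20 bases before the start), in the Hdac9 window (ctagctttag, 32 bases before it) and in the Hdac2 window (ctacccgtag, 148 bases before it), and in 3.69% of all windows. The middle of this search pattern was left free, so that only the Hdac5 match has the run of A or T letters that MEF2 factors are known to bind. GC boxes occur in 35.7% of all windows, CCAAT boxes in 37.4%, E-boxes in 7.15% and the cyclic AMP response element in 1.79%. A match is a string of letters in a window and no evidence of binding, and the windows shown for Hdac4 and Hdac7, the members that fell most, share no motif here beyond the GC box.

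Hdac1 and Hdac2 are the near paralogs that form the catalytic pair of the Sin3, NuRD and CoREST complexes, and neither passed the test. Hdac1 (gene number 433759, chromosome 4, 129516104 to 129542713, minus strand) measured 178 and 177 CPM in WT and 178 and 174 CPM in cKO. These values overlap between groups, with a log2 fold change of -0.01 (SE 0.05, 95% interval -0.13 to 0.10). Among the 50-base words of Hdac1 transcripts, 31.7% also occur in the processed pseudogene Gm10093, which has no row in the table, so its count is uncertain to the extent that such reads were dropped. Hdac2 (gene number 15182, chromosome 10, 36974544 to 37001889, plus strand) measured 75.2 and 77.2 CPM in WT and 84.4 and 83.2 CPM in cKO. Both cKO libraries were above both WT libraries, with a log2 fold change of 0.14 (SE 0.05, 95% interval 0.02 to 0.26, edgeR adjusted p = 0.0836).

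Hdac3, the enzyme that its NCoR corepressor complex switches on, came closest to the threshold among the class I genes. Hdac3 (gene number 15183, chromosome 18, 37935844 to 37955016, minus strand) measured 50.1 and 52.8 CPM in WT and 56.7 and 59.5 CPM in cKO, without overlap. The log2 fold change was 0.18 (SE 0.06, 95% interval 0.04 to 0.31, edgeR adjusted p = 0.0625), and upper-quartile scaling brought it past the threshold (log2 fold change 0.20, adjusted p = 0.0437). Hdac8 (gene number 70315, chromosome X, 102284639 to 102505359, minus strand), which acts on the cohesin subunit SMC3 outside the large corepressor complexes, measured 12.5 and 13.3 CPM in WT and 14.5 and 14.0 CPM in cKO. Its log2 fold change was 0.14 (SE 0.09, 95% interval -0.07 to 0.35, edgeR adjusted p = 0.27).

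Hdac11 (gene number 232232, chromosome 6, 91156665 to 91174692, plus strand), an enzyme known to strip fatty acyl groups from lysines, had the fewest counts, 134 to 168 per library. It measured 4.41 and 4.40 CPM in WT and 4.92 and 4.87 CPM in cKO, a log2 fold change of 0.15 (SE 0.13, 95% interval -0.17 to 0.48, edgeR adjusted p = 0.458). The libraries of a group lay closer together than counts of this size usually do, and the wide interval comes from the fit over all genes. Of the 50-base words in annotated Hdac11 transcripts, 14% also occur in Gm44002, a gene on the opposite strand without a row of counts. Part of the Hdac11 count may depend on how such reads were assigned. In all, 7 of 9 members (77.8%) had groups that did not overlap, 4 higher and 3 lower, beside 66% of all genes tested, 35.1% higher and 30.9% lower.

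Levels of different genes were compared as CPM per kilobase of summed exons. In the WT libraries Hdac1 stood highest at 51.6 ± 0.274 (SD, n = 2), followed by Hdac7 at 42.2 ± 1.87, Hdac2 at 17.0 ± 0.308 and Hdac3 at 12.7 ± 0.475. Hdac5 (6.16 ± 0.126), Hdac4 (4.40 ± 0.339) and Hdac8 (2.67 ± 0.115) came next, and Hdac11 (1.14 ± 0.00202) and Hdac9 (1.12 ± 0.139) shared the bottom with overlapping libraries. Every other pair of neighbours in this order was apart in both WT libraries. In the cKO libraries Hdac7 stood second at 28.5 ± 1.79, and Hdac4 (2.92 ± 0.215) and Hdac8 (2.94 ± 0.0804) overlapped. With the longest transcript as length, Hdac9 stood above Hdac11 in WT (2.08 ± 0.258 against 1.66 ± 0.00293), so the order at the bottom depends on the length used. On that length Hdac4 (5.41 and 6.01) stood below Hdac8 (6.40 and 6.16) in the cKO libraries, without overlap.

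**Figure D4:**
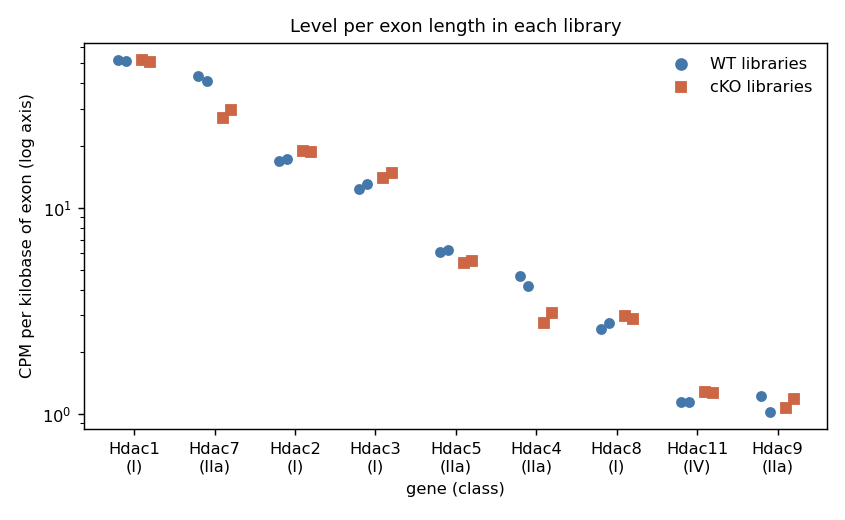
CPM per kilobase of exon (log axis) of each gene, ordered by the WT mean, circles for WT and squares for cKO libraries. Hdac7 drops from 42.2 to 28.5 and Hdac4 from 4.40 to 2.92, to the level of Hdac8, while Hdac1 stays near 51.

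Summed over its 4 genes, the class IIa level was 55.5 and 52.3 in WT and 36.5 and 39.5 in cKO, both cKO libraries below both WT libraries. The class I sum was 83.5 and 84.4 against 87.6 and 86.7. Class IIa thus made up 38.8% ± 1.15 of the summed level in WT and 30.1% ± 1.34 in cKO (SD, n = 2), a ratio within each library that does not depend on scaling between libraries. Within class IIa, Hdac7 held 78.5% and 78.2% in WT and 74.7% and 75.3% in cKO, while the share of Hdac5 was 10.9% and 11.9% against 14.8% and 13.9%. Hdac4 kept 8.37% and 7.95% against 7.60% and 7.78%, and Hdac9, whose own level did not pass, 2.20% and 1.96% against 2.92% and 2.99%. Hdac1 held 75.5% and 74.9% of the Hdac1 and Hdac2 level in WT and 73.3% and 73.1% in cKO. For each of these shares and sums the groups did not overlap, and the exact permutation test (2-sided, n = 2 per group) gave p = 0.333, the smallest it can give with 2 against 2.

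The partners of class IIa enzymes held many called genes in either direction. Of 22 tested, 6 were called higher, 6 lower and 10 not, or 54.5% beside 31.6% of all genes (median log2 fold change -0.01). With a block for the replicate number 9 were called, 40.9% beside 16.5% of all genes tested. Sik1, a salt-inducible kinase that phosphorylates class IIa enzymes, measured 928 and 791 CPM in WT and 348 and 446 CPM in cKO, a log2 fold change of -1.11 (SE 0.14, edgeR adjusted p = 0.00517). All 3 kinases of this family fell, with log2 fold changes of -0.39 for Sik2 and -0.36 for Sik3, and Sik2 did not pass when WT 1 was left out (edgeR adjusted p = 0.0501). Camk2g, a calcium and calmodulin dependent kinase gene, fell by 0.63 on the log2 scale. Camk1d, Camk2d and Camk4 did not pass, with log2 fold changes of -0.02, -0.06 and -0.07.

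Mef2d, a MEF2 factor that class IIa enzymes bind, measured 427 and 376 CPM in WT and 258 and 281 CPM in cKO. That is a log2 fold change of -0.58 (SE 0.08, edgeR adjusted p = 0.00608), of the same size as those of Hdac4 and Hdac7, and it held in all 11 alternatives. Mef2a did not pass (0.03). Mef2c, which B cells and myeloid cells are known to express, measured 7.32 and 12.3 CPM in WT and 17.2 and 28.8 CPM in cKO, a log2 fold change of 1.24 (SE 0.32). It did not pass when WT 1 or cKO 2 was left out (log2 fold changes of 0.91 and 0.81). Library cKO 2 had the highest sums of several marker lists, among them B cell (277 CPM) and neutrophil (1249 CPM). It had the lowest sum of macrophage markers (294 CPM). The part of such cells in the Mef2c values was not tested. Mef2b and Prkd1 had at most 4 counts in a library and were not tested. Prkd3, of the protein kinase D family, rose by 0.63 (SE 0.08), while Prkd2 did not pass (-0.01). Of the genes for 14-3-3 proteins, Ywhag and Ywhaq rose by 0.20 each, and DESeq2 called neither (adjusted p = 0.114 and 0.0881). Of all 6 such genes, 4 were called higher, 1 lower and 1 not, beside 16.5% higher and 15.1% lower over all genes tested. Ywhaz, the one with the highest CPM, fell by 0.20, and did not pass without any 1 of the libraries (edgeR adjusted p of 0.0784 to 0.199). Ywhae and Ywhah rose by 0.35 and 0.33, the latter not passing when WT 1 (edgeR adjusted p = 0.0548) or cKO 1 (0.0555) was left out.

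**Figure D5:**
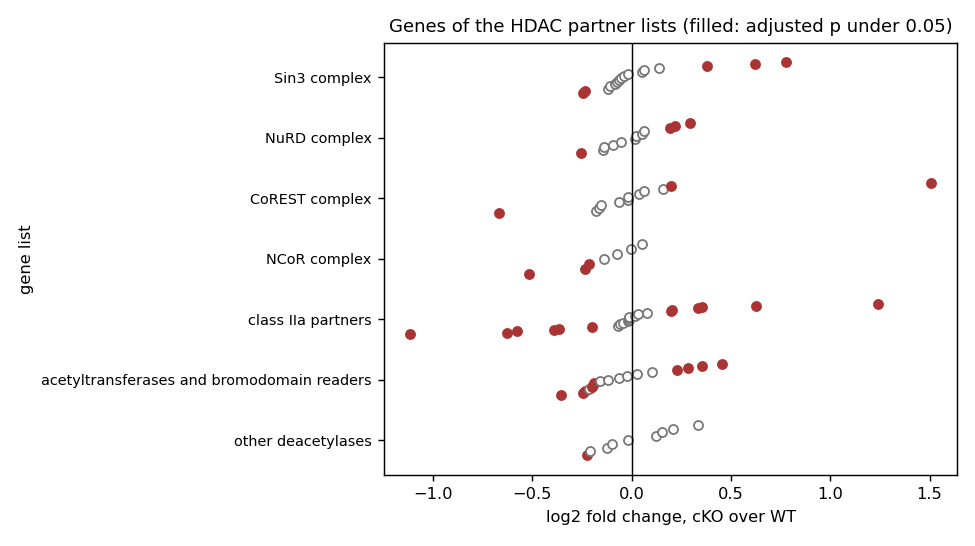
Log2 fold change of cKO over WT (horizontal axis) of each tested gene in 7 lists, filled where adjusted p was under 0.05. Class IIa partners spread from -1.11 (Sik1) to 1.24 (Mef2c), and no gene of the NCoR list is called higher.

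Among genes of the complexes that hold class I enzymes, the called shares of the Sin3 and NuRD lists were near the 31.6% of all genes tested and that of the CoREST list was 25%. In the Sin3 list 3 of 16 genes were called higher, 2 lower and 11 not (31.2%, median -0.05). Sap30, a subunit that steadies Hdac1 in the complex, measured 6.57 and 7.68 CPM in WT and 13.0 and 11.5 CPM in cKO (log2 fold change 0.78, SE 0.13, edgeR adjusted p = 0.00883), Brms1l rose by 0.62 and Sinhcaf by 0.38. Suds3 and Brms1 fell by 0.24 each. Brms1l did not pass when WT 1 (edgeR adjusted p = 0.0612) or cKO 1 (0.0575) was left out, nor did Brms1 when any of the 4 was (0.0777 to 0.187). With a block for the replicate number the list held 3 called genes, all higher (18.8%, beside 16.5% of all genes tested). Upper-quartile scaling left 3 higher and 1 lower (25%, beside 31.9%).

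In the NuRD list 3 of 12 genes were called higher, 1 lower and 8 not (33.3%, median 0.02). The methyl-CpG binding genes Mbd2 and Mbd3 rose by 0.22 and 0.19, Cdk2ap1 rose by 0.29, and Gatad2a fell by 0.26 on the log2 scale. None of these calls survived every alternative. With a block for the replicate number edgeR called 0 genes of the list (4 at an unadjusted p under 0.05), beside 16.5% of all genes tested. RLE scaling left 1 higher and 1 lower. Over all 4 libraries DESeq2 called Mbd2 and Gatad2a but neither Mbd3 (adjusted p = 0.17) nor Cdk2ap1 (0.132).

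In the CoREST list 2 of 12 were called higher, 1 lower and 9 not (25%, median -0.02). Gse1 measured 134 and 121 CPM in WT and 78.8 and 81.5 CPM in cKO (log2 fold change -0.67, SE 0.07, edgeR adjusted p = 0.00412), and the corepressor gene Ctbp2 rose from 1.24 and 1.87 to 4.47 and 4.34 CPM (log2 fold change 1.51, SE 0.23). The demethylase gene Kdm1a (LSD1) rose by 0.20. Leaving out any 1 library ended this call (edgeR adjusted p of 0.086 to 0.163).

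The list around Hdac3, named for the NCoR complex, also holds genes that are not its subunits, among them Bcl6. It had 3 of 7 genes called lower, 4 not and 0 higher. That is 42.9%, beside 31.6% of all genes tested (median log2 fold change -0.14). DESeq2 had 0 higher, and so did edgeR at an unadjusted p under 0.05. Bcl6, a repressor that recruits this complex, measured 55.8 and 50.8 CPM in WT and 35.2 and 39.1 CPM in cKO (log2 fold change -0.52, SE 0.08, edgeR adjusted p = 0.00722). The subunit genes Tbl1xr1 and Gps2 fell by 0.23 and 0.22. With a block for the replicate number the list had 1 called gene, 14.3% beside 16.5% of all genes tested. The corepressor gene Ncor1 did not pass, with a log2 fold change of -0.07.

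Enzymes that add acetyl groups and proteins that read them had 4 of 17 genes called higher, 6 lower and 7 not. That is 58.8%, beside 31.6% of all genes tested (median log2 fold change -0.12). Kat6a fell by 0.36 and held in all 11 alternatives, and the coactivator genes Crebbp and Kat7 fell by 0.24 and 0.20. Kat7 did not pass when any 1 library was left out (edgeR adjusted p of 0.0765 to 0.143), nor Crebbp without WT 1 (0.107), cKO 1 (0.0982) or cKO 2 (0.104). Hat1, which acetylates new histones before they enter chromatin, rose by 0.46 in libraries where the proliferation list was higher as well, and Brpf3 and Brd3 rose by 0.29 and 0.36, neither passing without WT 1 (edgeR adjusted p = 0.0563 and 0.0683). With a block for the replicate number the list had 2 called genes, 11.8% beside 16.5% of all genes tested. With a block that pairs WT 1 with cKO 2, a pairing picked from these data, it had 13, 76.5% beside 48.4%.

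Among the deacetylases outside the 9, Hdac6 and Hdac10 of class IIb and the sirtuins, 1 of 9 was called lower, 8 not and 0 higher. That is 11.1%, beside 31.6% of all genes tested (median log2 fold change -0.02). DESeq2 called 0 genes of the list, and edgeR had 0 higher at an unadjusted p under 0.05. Sirt1, which deacetylates p53 and Foxp3 among others, measured 70.6 and 65.9 CPM in WT and 58.4 CPM in each cKO library (log2 fold change -0.22, SE 0.06, edgeR adjusted p = 0.029), and the call needed WT 1 (0.137 when left out), cKO 1 (0.126) and cKO 2 (0.141). Hdac6 had a log2 fold change of -0.10 and Hdac10 of -0.02.

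The genes whose libraries ran most like those of Hdac7 were Smad3, a transducer of TGF-beta signals, Nfatc1, a calcium-driven transcription factor, and Galnt10, a glycosyltransferase gene. Their centred log2 CPM differed from that of Hdac7 by root mean squares of 0.00501, 0.011 and 0.0111 over the 4 libraries, the smallest among 8605 candidates (mean level 10 CPM or more). Smad3 measured 141 and 132 CPM in WT and 87.6 and 96.7 CPM in cKO, and Nfatc1 419 and 395 against 259 and 284 CPM. In each, as in Hdac7, WT 1 was above WT 2 and cKO 2 above cKO 1. With 4 libraries, many genes that fell by a like amount come close.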

How the data were processed

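RNA of splenic Treg cells was sequenced in 4 libraries, 2 per group. The authors deposited whole-number read counts per gene, with mm10 as the build per the submitters' processing notes. Aligner, counter, annotation release and strand use: not given in the sources used here. Genes were kept with filterByExpr (minimum count 10, minimum total 15), scaled by TMM and tested with edgeR 4.0.16 in R 4.3.3 by the quasi-likelihood F-test, group alone, with Benjamini-Hochberg adjustment over 13861 genes. SE is the absolute log2 fold change over the square root of F. Coordinates and exon lengths come from GENCODE M21 (GRCm38, the assembly of mm10), matched by gene number. Intervals cover the fit only, and a count of 0 allows up to 0.0864 to 0.103 CPM (3 counts, counting error only). Tested on simulated data with known changes, in far fewer genes than were called here, the procedure made more false calls than the threshold allows. Adjusted p-values near the threshold may therefore be optimistic.

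The 9 members and all lists were chosen with earlier results of these data known. Named genes are the members, Kmt2d, Foxp3, and of each list up to 3 called higher and 3 called lower with the smallest p. Sik2, Sik3, Ywhag, Ywhaq, Ywhaz, Mef2a, Mef2b, Mef2c, Prkd1, Prkd2, Camk1d, Camk2d, Camk4, Ncor1, Hdac6 and Hdac10 were named after their values were seen. So were the genes that overlap or share sequence with members. For the closest pattern, genes were ranked by the root mean square difference of centred log2 CPM (prior count 2). The alternatives tried were DESeq2 1.42.0, RLE scaling, upper-quartile scaling, no filter, a filter of 5 CPM in at least 2 libraries, a block for the replicate number, each library left out in turn and a threshold of 0.10. A crossed block and the longest transcript as length were added after the data were seen. Of the list markers, Ighm has no row here, and 1 gene of the NCoR list is not reported here and was left out of its counts.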

Additional observations from a re-analysis of the deposited data

How the results depend on the processing

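Over all genes, edgeR called 4380. DESeq2 called 2876, the replicate block 2292, the crossed replicate block (WT 1 with cKO 2, added because same-numbered libraries deviated in opposite ways, correlation -0.323 across genes) 6713, and leaving out a library 1869 to 2747. Labels give no shared animal or batch for equal numbers. The crossed pairing was picked from these deviations, so more calls with it follow in part from that choice and lend no support. Of the 9 deacetylase genes, 5 were called with the crossed block (55.6%, beside 48.4% of all genes tested). At an adjusted p under 0.10, 5 were called (55.6%, beside 40.3%), and in each case 3 were lower and 2 higher. With 1 library left out, Hdac4 ran from -0.67 to -0.51 on the log2 scale. Hdac7 then ran from -0.63 to -0.51 and Hdac5 from -0.20 to -0.15. With the replicate block, 2 deacetylase genes were called (22.2%, beside 16.5% of all genes tested), and the Hdac5 call was lost (edgeR adjusted p = 0.173). Beside that 16.5%, the block called 3 Sin3 genes (18.8%), 1 NCoR list gene (14.3%) and 2 acetyltransferase and reader genes (11.8%). It called 0 NuRD genes (4 at an unadjusted p under 0.05) and 0 other deacetylases (1 unadjusted). The crossed block called 6 CoREST genes (50%) and 3 other deacetylases (33.3%), beside 48.4% of all genes tested. RLE scaling called 2 NuRD genes (16.7%, beside 31.3%) and DESeq2 0 other deacetylases (1 unadjusted), beside 13.8% of all genes. Leaving out 1 library gave 2 to 4 Sin3 genes, 0 to 1 NuRD genes, 1 to 2 NCoR complex genes, 6 to 9 class IIa partners, 2 to 7 acetyltransferase and reader genes and 0 to 1 other deacetylases. The causes were not tested. Of 38 called list genes, 13 were called in every alternative run and 25 lost their call in at least 1. No called member or list gene changed sign where it was tested. A length from the deposited table was not run as an alternative, because the table has none. With the longest transcript as length, the difference (cKO minus WT) was -1.77 in place of -1.97 percentage points for the share of Hdac1 and -3.63 in place of -3.33 for that of Hdac7. With 2 libraries a group, a left-out library leaves a lone sample that is assumed to vary like the others, and Hdac11, under the filter of 5 CPM in 2 libraries, was not tested there.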

Other observations

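Hdac7 lies on the same chromosome as Kmt2d, the floxed gene, with 987 kilobases between them on GRCm38. Of 20 tested genes between the 2, 3 were called higher and 3 lower (30%, beside 31.6% of all genes), with a median log2 fold change of -0.05. The GTPase gene Rnd1 fell by 1.39 on the log2 scale, the ADP-ribosylation factor gene Arf3 by 0.28 and the cyclin gene Ccnt1 by 0.26, while Fkbp11, a chaperone gene known from secretory cells, rose by 1.42, the calcium channel subunit gene Cacnb3 by 0.89 and Tmem106c by 0.32. Counts were low for Fkbp11 (13, 20, 32 and 56) and Rnd1 (93, 75, 22 and 41). The edgeR adjusted p was 0.0357 for Fkbp11 and 0.0414 for Tmem106c, and the calls of these interval genes were not followed under the alternatives. This interval was looked at after the fall of Hdac7 had been seen.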
